A study of Drosophila melanogaster with 12 samples.

Results

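The comparison of the last pair of embryonic timepoints set the T6 mRNA-seq library (18–24 h after egg laying) against the T5 mRNA-seq library (12–18 h), gene by gene. A gene was compared if its FPKM (fragments per kilobase of gene, normalized for depth, as deposited) was at least 1 in T6 or in T5, and its change was log2((T6 + 1)/(T5 + 1)). Of the 14977 genes in the table, 10642 were compared and 4335 were under 1 in both libraries. Just inside the limit were *CR43845* (FPKM 0.442 in T6 and 1.002 in T5) and *CG13050* (0.138 in T6 and 1.005 in T5). Just outside it were *Dpy-30L2* (0.997 in T6 and 0.897 in T5) and *CG33792* (0.0879 in T6 and 0.996 in T5).

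The libraries come from a *Drosophila melanogaster* series in which 6 timepoints of embryogenesis (T1 to T6) were each profiled by 1 mRNA-seq library and by 1 miCLIP library, an immunoprecipitation of m6A-bearing RNA. T6 and T5 were whole embryos of mass collections, untreated, so each library pools many animals and all tissues. The growth protocol of the samples names them Canton S, whereas their strain entry reads yw. Poly(A) RNA was made into stranded libraries and sequenced paired-end on an Illumina instrument. There was no replicate at either timepoint, so no test was made, and every difference below describes these libraries only. A fold given with a range is the FPKM ratio without a pseudocount. The range is its 95% interval, computed from the recovered reads of the gene by the exact Clopper-Pearson method, and covers counting error only.

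At the end of fly embryogenesis the larva becomes ready to hatch. The epidermis and tracheae secrete and harden a chitin-based cuticle under the control of an ecdysone pulse, the tracheae fill with gas, muscles begin to contract in a coordinated way, and the gut becomes competent to digest food. Cuticle genes are known for brief, stage-specific transcription, and secreted digestive enzymes are known to be made in quantity by the larval midgut. In whole embryos, fewer cells of a type and less RNA per cell cannot be told apart.

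The recovered reads on genes numbered 23641750 in T6 and 24668282 in T5 mRNA-seq, so both libraries were read to nearly the same depth. Across the compared genes the T6 levels ranked most like those of T5 (Spearman 0.769 over 10642 genes, which share these libraries' preparation and are no replicates), against 0.508 with T4 and 0.411 to 0.468 with T1 to T3. Each tissue marker list had members at measurable level in both libraries. Of 19 genes of the adult yolk, chorion and vitelline list only 2 were compared, with summed FPKM of 2.66 in T6 and 3.33 in T5. Of 63 adult male reproductive genes 5 were compared, with summed FPKM of 26.8 in T6 and 23.7 in T5.

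The T6 miCLIP library went against the T6 mRNA-seq library on the genes of most extreme change. The 15 genes with the highest change had a median FPKM of 555 in T6 mRNA-seq, yet 12 of them were listed at 0 in T6 miCLIP. In T5 miCLIP 7 of the 15 were at 0 as well, with a median of 0.163, so these genes were low in both miCLIP libraries. T6 miCLIP was also shallower, with 6210064 recovered reads on genes and 31.5% of all genes at 0, against 17.4% at 0 in T6 mRNA-seq. The 15 genes with the lowest change had a median FPKM of 3.30 in T6 mRNA-seq, against 651 (70.1 to 11905) in T6 miCLIP. Thus the genes that were nearly gone from the T6 mRNA-seq library were abundant in the T6 miCLIP library. Some early maternal RNAs were also higher in T6 than in T5 mRNA-seq. Of 17 compared early maternal genes, 5 (*bcd*, *plu*, *swa*, *gnu* and *smg*) were over 2-fold higher (29.4%, against 16.2% of all compared genes). Over 2-fold lower was *gcl* (5.88%, against 10.5% of all). The summed FPKM of the list was 215 in T6 and 248 in T5, and none of its 18 genes was at 0 in either library. With both libraries scaled to equal FPKM sums, 1 of 18 was over 2-fold higher and 1 lower (median 0.11). *bcd*, the anterior determinant laid down in the egg, had FPKM of 52.2, 58.3, 15.3, 3.66, 1.52 and 6.18 in T1 to T6. The T6 label of either library was taken as given, and an exchanged label or a differently staged collection, either of which would change what the T6 values stand for, was not tested. The part of early RNA in the results below was not tested, and counts without the genes that T1, T2 or T3 held above T6 are given beside the totals.

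Of the 10642 genes, 1724 were over 2-fold higher in T6 than in T5 (16.2% of those compared) and 1113 were over 2-fold lower (10.5%). These shares are the background against which the counts of every list below should be read. Over 4-fold, 613 genes were higher (5.76%) and 474 were lower (4.45%). The median log2 change of all compared genes was 0.13, and single genes spanned -8.41 (*Osi6*) to 7.37 (*Nplp4*). The excess of higher over lower genes depended on the scale between the libraries. At equal FPKM sums, 1114 genes were higher and 1856 lower and the median was -0.28, and with recovered reads divided by the library total, 1323 were higher and 1416 lower and the median was -0.09. Without the genes whose T1, T2 or T3 level was above that of T6, 1499 were higher and 769 lower of 6128. This filter uses the T6 level itself and so drops genes low in T6 more readily. The higher share (24.5%) and median (0.32) that it gave are therefore not separate evidence of an excess of higher genes.

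The 1724 higher genes held 25.9% of the T6 reads and 8.33% of the T5 reads. The 1113 lower genes held 2.72% of the T6 reads and 18.8% of the T5 reads (each Wilson interval at the 95% level spans at most 0.0353 percentage points). Most of the higher genes peaked in T6. Of the 1724, 1486 (86.2%) had their highest mRNA-seq level of the 6 timepoints in T6, against 35.0% of all compared genes. By the way they were chosen, none of them could peak in T5. Of the 1724, 731 (42.4%) were under an FPKM of 1 in all of T1 to T4, against 17.4% of all compared genes. Of the 613 genes over 4-fold higher, 67.0% were under 1 in all of T1 to T4. The deposited mRNA-seq FPKM summed to 314435 in T1, 455696 in T4, 782408 in T5 and 1060880 in T6. On this rising scale, counts of genes highest in T6 lean toward T6, here and in the lists below. The lower genes had mostly peaked just before, 909 of 1113 (81.7%) in T5, against 22.7% of all compared genes, and 162 in T4. By the way they were chosen, none of the lower genes could peak in T6.

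The genes that differed over 4-fold were also short. The longest coding sequence had a median of 860 nt in genes over 4-fold higher and 1103 nt in genes over 4-fold lower, against 1317 nt for all compared genes, in the Ensembl BDGP6.54 annotation. A single exon held the transcript in 25.5% of genes over 4-fold higher, in 10.9% of those over 4-fold lower and in 11.1% of all. By RefSeq class, 604 of the 613 genes over 4-fold higher were protein-coding. Among small nucleolar RNAs, 55 of 140 compared were over 2-fold higher and 1 was lower, with a median FPKM of 3.30 in T6 and 2.07 in T5 from libraries of poly(A) RNA. Together they held 0.00744% of the T6 reads and 0.00521% of the T5 reads, so most of these changes rest on few reads.

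**Figure D1:**
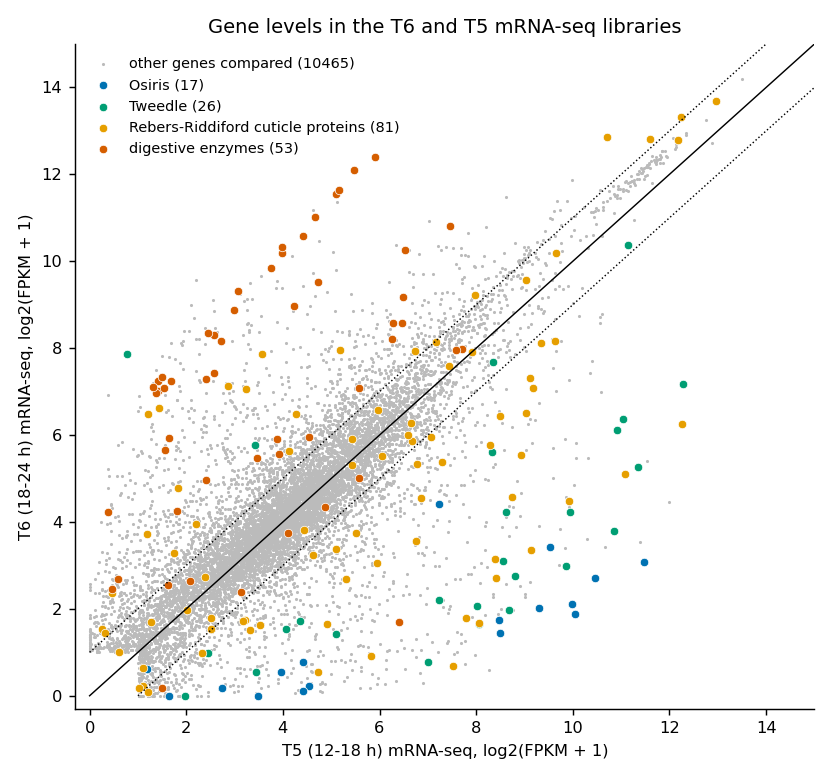
Each point is 1 of the 10642 compared genes, with its T6 level on the vertical and its T5 level on the horizontal axis, both as log2(FPKM + 1). The solid line is equality, the dotted lines mark 2-fold, and the Osiris and most Tweedle genes lie far below the diagonal while digestive enzymes lie far above it.

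The 15 genes with the highest change were *Nplp4*, *TwdlO*, *CG3264*, *Jon99Fi*, *CG11300*, *CG42815*, *CG32188*, *CG9759*, *Jon99Cii*, *Jon99Fii*, *Jon99Ciii*, *CG17362*, *Cht9*, *epsilonTry* and *CG32189*. All 15 reached their highest level of the 6 timepoints in T6, and their median FPKM was 0.321, 0.0157, 0.0903, 0.0715, 3.59 and 555 in T1 to T6. *Nplp4*, a neuropeptide-like precursor, had an FPKM of 759 in T6 and 3.59 in T5, which is 211-fold higher (146 to 318). *TwdlO*, a Tweedle cuticle protein gene, had 232 in T6 and 0.699 in T5 (332-fold, 181 to 694). *CG9759* had 120 in T6 and 0.293 in T5, and since its T5 level rests on 3 reads its 409-fold difference has an interval of 139 to 1984. In T1 to T4 none of the 15 exceeded 4.19 and in T5 none exceeded 59.1, against 120 to 5430 in T6. *Cht9*, of the family of chitinases, which cleave chitin, had 276 in T6 and 2.22 in T5 (124-fold, 95.2 to 165).

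The 15 genes with the lowest change were *Osi6*, *Osi20*, *Osi7*, *CG31813*, *Osi15*, *CG14756*, *CG13159*, *Osi19*, *CG15022*, *TwdlF*, *Osi18*, *CG3108*, *CG15740*, *TwdlW* and *Cpr66Cb*, of which 6 are Osiris genes, 2 Tweedle genes and 1 a Rebers-Riddiford cuticle gene. Their median FPKM was 6.38, 1.21, 0.684, 26.9, 1007 and 3.30 in T1 to T6, so the T6 median was below those of T4 and T1. Of the 15, 14 had their highest level in T5. *CG14756* was the exception, with 391 in T4, 306 in T5 and 0.509 in T6. *CG13159* had 20.9 in T6 and 4068 in T5, which is 194-fold lower (164 to 231). *CG15022* had 9.78 in T6 and 1614 in T5 (165-fold lower, 142 to 193).

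**Figure D2:**
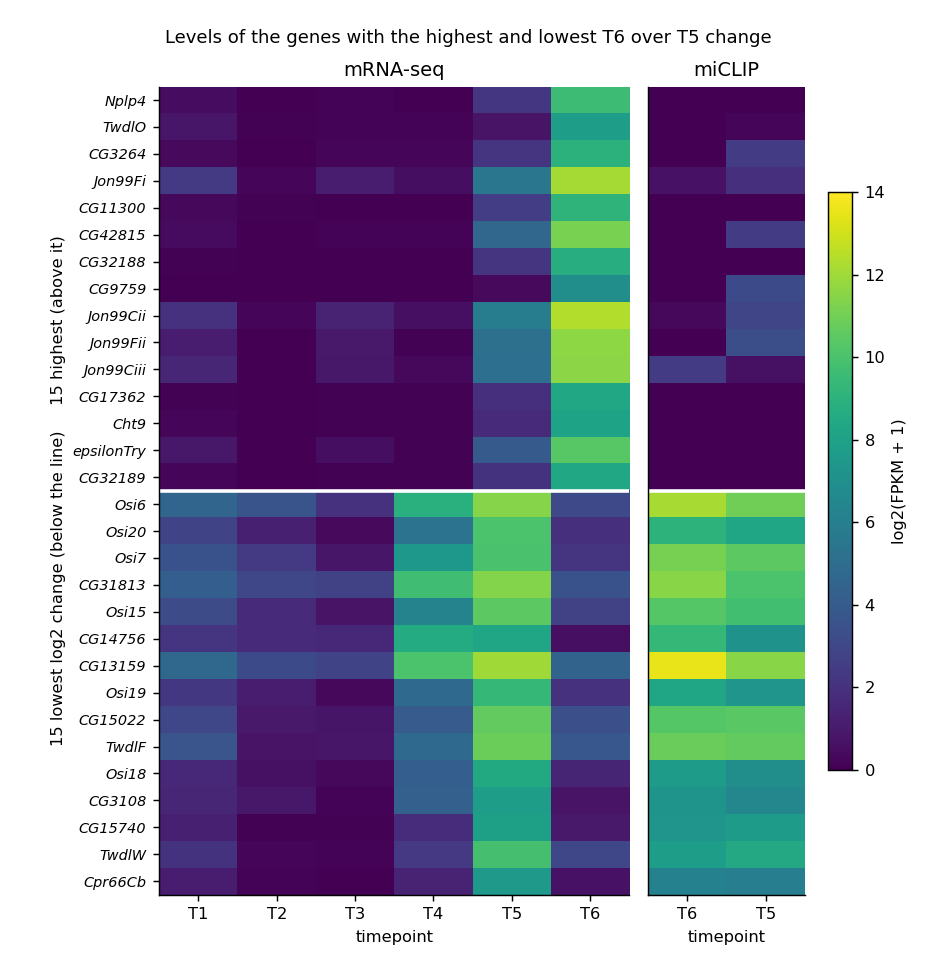
Colour gives log2(FPKM + 1) of the 15 genes with the highest and the 15 with the lowest T6 over T5 change in the 6 mRNA-seq libraries (left) and in the T6 and T5 miCLIP libraries (right). The upper genes appear in T6 mRNA-seq and are at or near 0 in T6 miCLIP, and the lower genes drop to a median of 3.30 in T6 mRNA-seq and stay at a median of 651 in T6 miCLIP.

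The Osiris genes, a family of insect genes for small membrane proteins found in cuticle-forming tissue, were lower as a group. Of 17 compared, 16 were over 2-fold lower and none was higher, with a median log2 change of -4.32, against 10.5% lower and a median of 0.13 over all genes. All 17 had their highest level in T5, against 22.7% of all compared genes and 81.7% of the genes over 2-fold lower. Since all 17 were lower in T6 than in T5, none of them could peak in T6. *Osi6* had FPKM of 22.98, 11.6, 3.02, 469, 2849 and 7.41 in T1 to T6, and its 192 reads in T6, against 91250 in T5, give a 385-fold lower level (334 to 446). *Osi20* had 2.69 in T6 and 1062 in T5 (394-fold lower, 304 to 521), and *Osi7* had 3.30 in T6 and 1007 in T5 (305-fold lower, 260 to 361). The summed FPKM of the family was 58.6 in T6 and 8654 in T5. The member least changed was *Osi10*, at 0.535 in T6 and 1.28 in T5. The changes thus ran from -8.41 to -0.57, with the pseudocount limiting how low the change of a member with a low T5 level can be.

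Cuticle protein genes split into those that were leaving and those that were arriving. Of 26 Tweedle genes, which encode chitin-binding cuticle proteins, 22 were over 2-fold lower and 2 higher, with a median of -4.74. *TwdlF* had 12.9 in T6 and 1852 in T5 (143-fold lower, 127 to 162). *TwdlM*, at 144 in T6 and 4997 in T5 (34.7-fold lower, 33.3 to 36.1), had the lowest change among genes that reached FPKM 100 in T6 as well as T5. The exceptions were *TwdlO*, given above, and *Twdlalpha*, at 53.6 in T6 and 9.65 in T5 (5.56-fold higher, 4.85 to 6.38). *TwdlN* and *TwdlP* stayed within 2-fold, at 1335 and 203 in T6 and 2249 and 326 in T5. The summed FPKM of the family was 2292 in T6 and 20806 in T5.

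The Rebers-Riddiford genes, the main family of insect cuticle proteins and named for their chitin-binding domain, were mixed. Of 81 compared, 37 were over 2-fold lower and 20 higher, with a median of -0.82, yet their summed FPKM was 51833 in T6 and 40593 in T5. The lowest members were *Cpr66Cb* (0.595 in T6 and 183 in T5), *Cpr66D* (2.17 and 265) and *Cpr65Ea* (74.8 and 4867, 65.03-fold lower, 60.03 to 70.6). The highest were *Cpr65Ay* (88.8 in T6 and 1.31 in T5, 67.6-fold higher, 38.5 to 132), *Cpr11B* (97.3 and 1.71, 56.9-fold, 39.4 to 85.3) and *Cpr67B* (231 and 10.8, 21.4-fold, 18.7 to 24.6). Clustered subfamilies differed in direction. Of the 7 *Ccp84A* genes 6 were over 2-fold lower, with FPKM of 2.16 to 62.8 in T6 and 28.9 to 424 in T5. Of the 7 *Cpr47E* genes 5 were over 2-fold higher, among them *Cpr47Eg* at 7379 in T6 and 1664 in T5. The most abundant members stayed high, *Lcp65Ag2* at 13260 in T6 and 7942 in T5 and *Lcp65Ag3* at 10234 and 4814. *Lcp65Ag2* and *Lcp65Ag3* have near-identical copies and reads may have been split between them, so their sum is firmer than either value.

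Genes of cuticle assembly and shape were also lower. Of 19 genes for apical matrix and zona pellucida domain proteins, which anchor and mould the cuticle surface, 15 were over 2-fold lower and none was higher (median -2.17). *dyl* (dusky-like) had 2.64 in T6 and 288 in T5 (109-fold lower, 92.5 to 130), *ect* 3.80 and 324 (85.2-fold lower, 74.9 to 97.2), and *m* (miniature) 0.210 and 26.3 (125-fold lower, 71.6 to 243). Chitin synthesis and turnover was lower for 9 of 24 genes (37.5%, against 10.5% of all compared genes). It was higher for 4 (16.7%, close to the 16.2% of all compared genes), with a median of -0.31. The lower ones included the chitinases *Cht6* (4.001 in T6 and 48.2 in T5) and *Cht7* (29.6 and 243), the chitin deacetylases *serp* (75.5 and 534) and *verm* (154 and 968), and the epidermal chitin synthase gene *kkv* (14.6 and 60.2). The higher ones were *Cht9*, *Cht4* (8.02 in T6 and 0.328 in T5, 24.5-fold, 13.03 to 51.8), *CS-2*, the other chitin synthase gene (11.5 and 3.73, 3.10-fold, 2.73 to 3.52), and *Idgf1* (log2 change 1.29). The pair of chitin synthase genes therefore changed in opposite directions.

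Tanning hardens and darkens the cuticle with catecholamine-derived compounds. Of 22 genes for it, 11 were over 2-fold lower and 2 higher (median -1.01). *amd* had 3.58 in T6 and 159 in T5 (44.4-fold lower, 37.4 to 53.2), *PPO2*, a prophenoloxidase of crystal cells, 15.2 and 173 (11.3-fold lower, 10.4 to 12.4), and *laccase2*, the oxidase of cuticle tanning, 7.03 and 56.3 (8.01-fold lower, 7.36 to 8.73). *ple*, the tyrosine hydroxylase gene at the start of the pathway, was within 2-fold (16.0 in T6 and 22.2 in T5). *yellow-d* (39.7 in T6 and 9.32 in T5) and *yellow-f2* (47.7 and 21.2) were higher. Epidermis markers were lower with these groups. Of the 10 markers, 8 were over 2-fold lower and none was higher, their summed FPKM was 321 in T6 and 1740 in T5, and none was at 0 in either library. All 8 of the lower markers also stand in other lists (such as *serp*, *verm* and *kkv* under chitin), so they are not separate evidence. Their part in the cuticle results was not tested.

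Trachea and basement membrane genes were lower to a smaller extent. Of 23 tracheal genes 7 were over 2-fold lower and none was higher (median -0.74). *Gasp*, a chitin-binding protein of the tracheal lumen, had 58.8 in T6 and 914 in T5 (15.5-fold lower, 14.8 to 16.3), and *uif*, a transmembrane protein of tracheal and epidermal cells, 9.90 and 66.4 (6.71-fold lower, 6.403 to 7.04). Of 10 basement membrane genes 5 were over 2-fold lower (median -0.95), such as *Ndg* (nidogen) at 73.7 in T6 and 286 in T5 (3.88-fold lower, 3.77 to 3.99). The collagen IV gene *Cg25C* was within 2-fold, at 691 in T6 and 959 in T5. At equal FPKM sums, 15 of the 23 tracheal and 7 of the 10 basement membrane genes passed 2-fold lower.

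Digestive enzyme genes were the counterpart. Of 53 compared, 43 were over 2-fold higher and 2 lower, with a median of 4.08, and the 60 genes of the list held 2.12% of the T6 reads and 0.169% of the T5 reads. All 16 Jonah genes, which encode midgut serine proteases, were over 2-fold higher, with a median FPKM of 1203 (17.7 to 5430) in T6 and 19.1 (0.304 to 175) in T5. Before T5 none of them exceeded 4.19. *Jon99Cii* had 3.05, 0.157, 1.59, 0.464, 59.1 and 5430 in T1 to T6 (91.9-fold higher in T6 than in T5, 86.5 to 97.7), and *Jon99Fi* 4390 in T6 and 43.5 in T5 (101-fold, 94.3 to 108). The family contains close copies between which reads may be shared, but every member differed in the same direction, from 3.36 to 6.63 log2 units.

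All 11 trypsin genes named by Greek letters were over 2-fold higher, with a median of 295 (43.7 to 1292) in T6 and 14.8 (1.67 to 87.7) in T5. *epsilonTry* had 1292 in T6 and 14.8 in T5 (87.2-fold, 77.0 to 99.0), and *betaTry* 917 and 12.5 (73.3-fold, 63.9 to 84.5). The 5 compared lysozyme genes ran from 123.2 to 314 in T6 and from 1.58 to 4.96 in T5. Lysozymes break bacterial cell walls and digest bacteria in the gut. *LysC* among the 5 (129 in T6 and 1.68 in T5) is classed as a pseudogene in RefSeq. These 5 genes are close copies that may share reads. Maltase genes changed less, with 4 of 9 over 2-fold higher, none lower and a median of 0.56. The 2 lower genes were the lipases *Lip1*, at 2.24 in T6 and 83.1 in T5 (37.1-fold lower, 28.7 to 48.7), and *Lip2*, at 0.128 in T6 and 1.82 in T5. Of the gut markers, the 4 trypsins in the list were higher, the gut transcription factor gene *GATAe* had 25.5 in T6 and 42.3 in T5, and *drm* was over 2-fold lower (35.1 and 79.0), so genes of the gut did not share a direction.

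Chitin-binding genes outside the cuticle families went both ways. Of 17 compared, 7 were over 2-fold higher and 7 lower (median 0.53). The higher ones included *Peritrophin-15a* (556 in T6 and 8.55 in T5, log2 change 5.87), *Peritrophin-15b* (138 and 2.61, 53.1-fold, 37.6 to 77.4) and *obst-G* (20.01 and 0.351, 57.0-fold, 27.4 to 143), the first of which belong to a family that lines the midgut. The lower ones included *obst-A*, a component of the epidermal cuticle (24.4 in T6 and 485 in T5, 19.8-fold lower, 18.5 to 21.4), *Gasp* and the deacetylase *Cda4* (52.6 and 256).

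**Figure D3:**
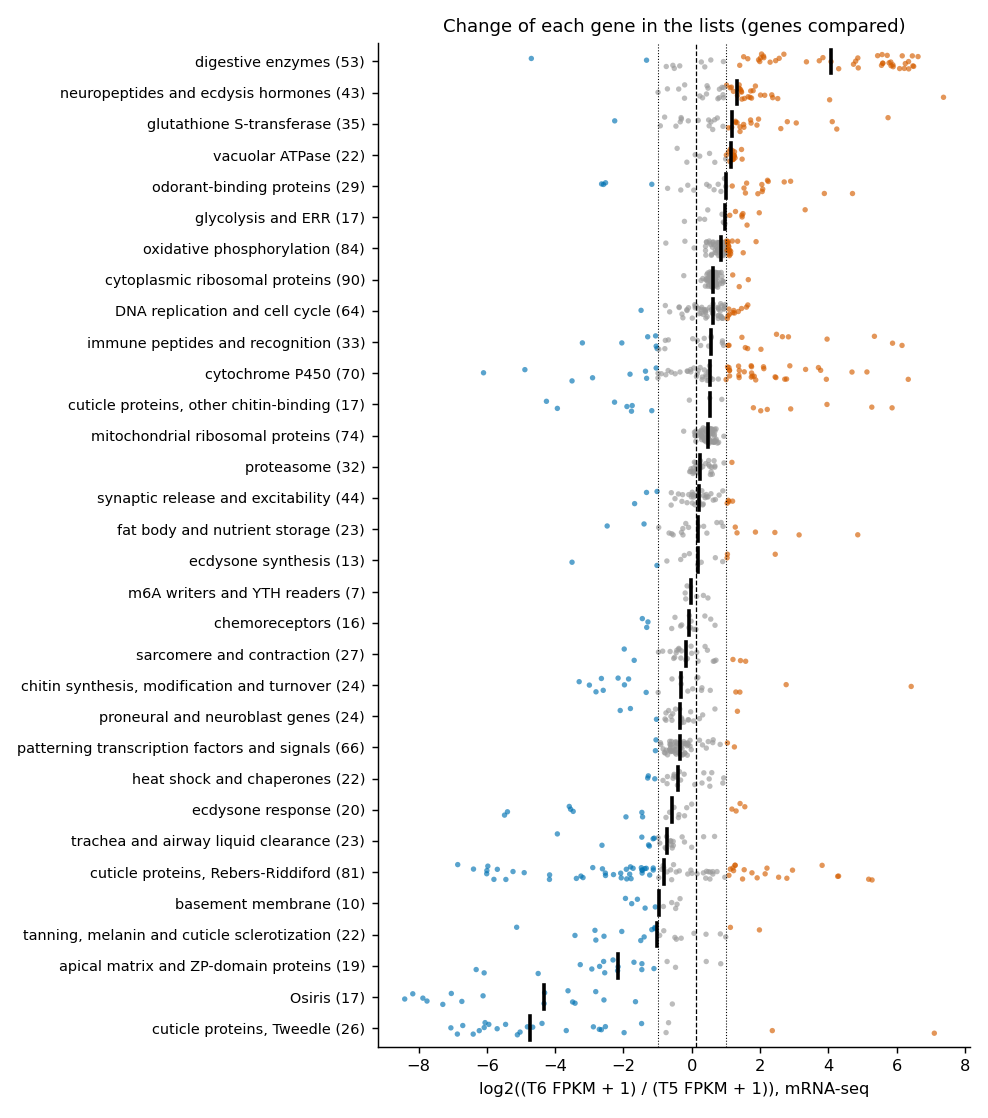
Each point is a compared gene at its T6 over T5 log2 change, in lists ordered by their median (thick bar), with the number of compared genes in parentheses. Dotted lines mark 2-fold and the dashed line the median of all genes, 0.13, and list medians run from 4.08 for digestive enzymes to -4.74 for Tweedle genes.

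Neuropeptide and hormone genes were higher. Of 43 compared, 26 were over 2-fold higher and none was lower (median 1.34). Of the 43, 38 had their highest level of the 6 timepoints in T6, against 35.0% of all compared genes. Only the 38 genes with a T6 level above that of T5 could peak there. *Nplp4* led, followed by *Ilp2*, an insulin-like peptide of brain neurosecretory cells (35.5 in T6 and 1.22 in T5, 29.0-fold, 17.9 to 50.3), and *Hug*, the hugin precursor (21.6 and 2.94, 7.33-fold, 5.60 to 9.74). *Akh*, the adipokinetic hormone that mobilises energy stores, had 28.1 in T6 and 7.92 in T5. *ETH* (ecdysis triggering hormone) was at 26.9 in T6 and 19.1 in T5, *Eh* (eclosion hormone) at 4.99 and 2.14 and *CCAP* at 3.63 and 1.51, all within 2-fold on the log2(FPKM + 1) scale. *Ilp4* had 14.45 in T6 and 29.6 in T5. At equal FPKM sums, 21 members were higher and 2 lower.

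Neuronal genes at large did not share this. Of 44 genes for synaptic release and excitability, 4 were over 2-fold higher (*ChAT*, *Rdl*, *Snap25* and *Gad1*) and 3 lower (*GluRIIE*, *GluRIID* and *elav*). Their median of 0.20 turned to -0.21 at equal FPKM sums, and none then passed 2-fold higher. *ChAT*, which makes acetylcholine, had 15.2 in T6 and 6.09 in T5 (2.50-fold, 2.25 to 2.79), and *GluRIIE*, a glutamate receptor subunit of the muscle synapse, 8.09 and 28.0 (3.46-fold lower, 3.13 to 3.84). Neuron markers (2 of 8 higher and 1 lower), glia markers (1 of 11 higher and 2 lower) and the 6 body muscle markers (none past 2-fold) gave no common direction past 2-fold. Summed FPKM of these lists was 244, 718 and 10324 in T6, against 193, 599 and 11504 in T5.

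Ecdysone response genes, which answer the steroid pulse, were lower for 8 of 20 and higher for 4 (median -0.58). *ImpL1* had 304 in T4, 268 in T5 and 5.02 in T6 (53.4-fold lower in T6 than in T5, 44.02 to 65.5), and *ImpE2* 338 in T4, 175 in T5 and 3.18 in T6 (55.1-fold lower, 44.8 to 68.5). *ftz-f1*, a nuclear receptor that follows the decline of the pulse, had 8.78 in T6 and 117 in T5 (13.3-fold lower, 12.5 to 14.1). In the other direction, *Eip75B* had 15.8 in T6 and 5.30 in T5 (2.98-fold, 2.79 to 3.18) and *Eip55E* 174 and 58.5 (2.97-fold, 2.80 to 3.14). Of 13 genes of hormone synthesis and breakdown, *Cyp18a1*, whose product inactivates the hormone, had 8.81 in T6 and 110 in T5 (12.5-fold lower, 11.3 to 13.9). *shd*, whose product makes the active form from ecdysone, had 6.15 in T6 and 0.314 in T5 (19.6-fold higher, 12.2 to 33.5).

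Genes of energy metabolism were higher in small steps. Of 22 vacuolar ATPase genes, subunits of the proton pump of acidic compartments, 15 were over 2-fold higher and none was lower (median 1.16). *Vha13* had 2322 in T6 and 845 in T5 (2.75-fold, 2.69 to 2.81) and *Vha100-4*, at most 1.78 before T5, 120 and 42.6 (2.82-fold, 2.69 to 2.96). Of 84 oxidative phosphorylation genes, 82 had their highest level of the 6 timepoints in T6, against 35.0% of all compared genes. Only the 82 genes with a T6 level above that of T5 could peak there. Of the 84, 21 were over 2-fold higher (median 0.86). Among the 21 were *Cyt-c-p* (cytochrome c) at 2675 in T6 and 941 in T5 and *sesB*, the ADP/ATP carrier, at 3721 and 1008. Of 17 genes of glycolysis and its regulator, 8 were over 2-fold higher (median 0.99), *Gpdh* (glycerol-3-phosphate dehydrogenase) most, at 732 in T6 and 72.4 in T5 (10.1-fold, 9.82 to 10.4), then *Eno* (enolase) at 617 and 156 and *Gapdh1* at 1163 and 378. How many of these genes passed 2-fold depended on the scale between the libraries, which moved log2 changes by at most 0.44. At equal FPKM sums, 2 vacuolar ATPase, 2 oxidative phosphorylation and 6 glycolysis genes remained over 2-fold higher. The medians of the lists were then 0.72, 0.42 and 0.55, against -0.28 for all genes compared.

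The 90 cytoplasmic ribosomal protein genes had a median of 0.64 and the 74 mitochondrial ones 0.49, with 3 and 0 genes over 2-fold higher. At equal FPKM sums the medians were 0.20 and 0.06. The cytoplasmic genes held 19.6% of the T6 reads and 15.1% of the T5 reads. *RpL41* had the highest FPKM of all genes in both libraries, 18657 in T6 and 11541 in T5. The 3 genes past 2-fold were the paralogs or like-named genes *RpLP0-like* (237 in T6 and 74.4 in T5), *RpL7-like* (273 and 104) and *RpL24-like* (470 and 204), so no canonical subunit gene passed 2-fold. Of 32 proteasome genes only *Prosalpha1* did (24.5 in T6 and 10.3 in T5), and the median of 0.25 turned to -0.18 at equal FPKM sums.

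Detoxification genes were higher in part. Of 35 glutathione S-transferase genes, 19 were over 2-fold higher and 1 lower (median 1.17), against 12 higher and 3 lower (median 0.87) at equal FPKM sums. *GstD7* had 331 in T6 and 5.18 in T5 (63.9-fold, 51.0 to 81.1), *GstD2* 145 and 6.70 (21.7-fold, 17.7 to 26.7) and *GstD1*, the most abundant, 939 and 249, whereas *GstT4* had 56.6 in T6 and 274 in T5 (4.84-fold lower, 4.54 to 5.18). Of 70 genes matched by a cytochrome P450 symbol, 32 were over 2-fold higher and 8 lower (median 0.54). At equal FPKM sums, 23 were higher and 12 lower (median 0.17). This list took in *Cyp1*, a cyclophilin gene within 2-fold. *Cyp6w1* had 226 in T6 and 1.81 in T5 (125-fold, 97.3 to 164) and *Cyp6a2* 315 and 8.04 (39.2-fold, 34.8 to 44.3), while *Cyp304a1* had 2.50 in T6 and 239 in T5 (95.5-fold lower, 75.7 to 122). All 7 *Cyp12* genes, of a mitochondrial P450 family, had their highest level in T6, against 35.0% of all compared genes. Since all 7 were higher in T6 than in T5, none of them could peak in T5. Of the 7, 6 were over 2-fold higher.

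Immune genes were led by gut amidases. Of 33 compared, 13 were over 2-fold higher and 6 lower (median 0.57). At equal FPKM sums, 11 of 32 were higher and 9 lower (median 0.15). The genes of the peptidoglycan-degrading amidases *PGRP-SC2*, *PGRP-SC1a* and *PGRP-SC1b* had 269, 119 and 120 in T6, against 2.78, 1.04 and 1.96 in T5. The first was 96.6-fold higher (68.3 to 142), and the other pair are near-identical copies that may share reads. *Drsl5*, a drosomycin-like peptide gene, had 3.93 in T6 and 44.4 in T5 (11.3-fold lower, 7.46 to 17.9). Hemocyte markers diverged, with *Hml* (8.61 in T6 and 1.45 in T5) and *eater* (3.47 and 0.205) over 2-fold higher and *PPO2* and *Pxn* over 2-fold lower, out of 9 compared.

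Odorant-binding protein genes, which code for carriers of small hydrophobic molecules, were over 2-fold higher for 14 of 29 and lower for 4 (median 0.99). *Obp56a* had 384 in T6 and 13.8 in T5 (27.9-fold, 23.8 to 33.0) and *Obp99d* 49.8 and 2.45 (20.4-fold, 13.1 to 33.3), while *Obp47b* had 5.56 in T6 and 38.4 in T5. Among 23 fat body and storage genes 6 were higher and 2 lower. *Gnmt*, glycine N-methyltransferase, had 330 in T6 and 10.4 in T5 (31.7-fold, 27.7 to 36.6), *AcCoAS*, acetyl-CoA synthetase, 284 and 31.3 (9.08-fold, 8.67 to 9.52) and *Lsd-1*, a coat protein of lipid droplets, 76.4 and 13.3 (5.73-fold, 5.22 to 6.30). The median of this list, 0.20, turned to -0.09 at equal FPKM sums. The cold-induced gene *Fst* had 1144 in T6 and 112 in T5 (10.2-fold, 9.77 to 10.6).

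Few contractile and patterning genes and no m6A genes passed 2-fold. Of 27 sarcomere genes 3 were over 2-fold higher (*TpnC25D*, *Zasp66* and *fln*) and 2 lower (*Act87E* and *TpnC41C*), with a median of -0.17, against 1 higher and 5 lower at equal FPKM sums. *Act57B*, a larval muscle actin, had 6723 in T6 and 7577 in T5, and *Act87E* 383 and 1513 (3.95-fold lower, 3.87 to 4.03). Of 66 patterning genes 2 were higher and 2 lower (median -0.36), the higher ones being *zen* (1.65 in T6 and 0.114 in T5, against 21.0 in T3) and *ftz* (1.63 and 0.274). Of 65 patterning genes compared at equal FPKM sums, 1 was higher and 14 were lower (median -0.76). None of the 7 m6A writers and YTH readers passed 2-fold. The methyltransferase gene *Ime4* had 5.54 in T6 and 3.71 in T5, *fl(2)d* 33.6 and 38.6, *vir* 8.13 and 7.27, *nito* 14.9 and 16.5, *CG7818* a log2 change of 0.34, and the reader genes *YT521-B* 32.0 and 32.8 and *CG6422* 24.2 and 27.5. *Sxl*, the switch gene of sex determination, had 21.4 in T6 and 32.1 in T5 (1.50-fold lower, 1.44 to 1.57).

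Cell cycle genes passed 2-fold higher about as often as all genes. Of 64 compared, 11 were over 2-fold higher (17.2%, against 16.2% of all genes) and 1 lower (median 0.61). All 64, whether changed or not, had a T1, T2 or T3 level above that of T6, so this does not set the 11 apart. *CycB*, a mitotic cyclin, had 857, 896, 568, 182, 35.1 and 98.2 in T1 to T6 (2.80-fold higher in T6 than in T5, 2.66 to 2.94), *CycB3* 50.4 in T6 and 15.9 in T5, and *borr*, of the chromosomal passenger complex, 35.9 and 10.8. *dap*, the inhibitor that stops the cycle, had 8.49 in T6 and 25.6 in T5 (3.01-fold lower, 2.67 to 3.40). The early maternal markers also had a median of 0.61, but their summed FPKM was 215 in T6 and 248 in T5. The summed FPKM of the 64 cell cycle genes was 1110 in T6 and 715 in T5. The part of early maternal RNA was not tested. At equal FPKM sums, 3 of the 64 were over 2-fold higher and 3 lower.

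Some neighbouring genes moved together. In RefSeq gene order, with 10531 compared genes placed, 18 runs of at least 5 neighbours were over 2-fold higher throughout and 6 runs were over 2-fold lower throughout. These runs were looked for after the values were seen, and they hold many paralogs that can share reads. The longest higher run had 14 genes, from *lambdaTry* to *iotaTry* on arm 2R, with log2 changes of 1.40 to 6.35. Others were the *GstD* genes (*GstD9* to *CG10035*, 10 genes on 3R), the lysozymes *LysB* to *LysS* (5 genes on 3L) and the Jonah genes of 65A (*yip7* to *Jon65Ai*, 5 genes on 3L).

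The longest lower runs were 8 genes from *Osi24* to *Osi12* and 8 genes from *Osi13* to *Osi20*, both on 3R and separated by *CG15597* (log2 change 4.03) and *CG15594* (-0.96). *Osi10*, since divided between a pair of gene models, was not placed. Another run, 7 genes from *geko* to *skl* on 3L, holds *hid*, *grim*, *rpr* and *skl*, whose products set off apoptosis by binding inhibitors of cell death. *rpr* had 37.4 in T4, 31.3 in T5 and 3.92 in T6 (7.98-fold lower in T6 than in T5), *grim* 8.97, 6.00 and 0.211 (28.5-fold lower) and *hid* 20.7, 3.72 and 0.682 (5.455-fold lower). Within the same run *CG7330* had 1.40 in T6 and 169 in T5 (121-fold lower). The other lower runs were *Ccp84Ag* to *Ccp84Ac*, *CG13064* to *CG13045* and *CG14095* to *CG32213*.

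**Figure D4:**
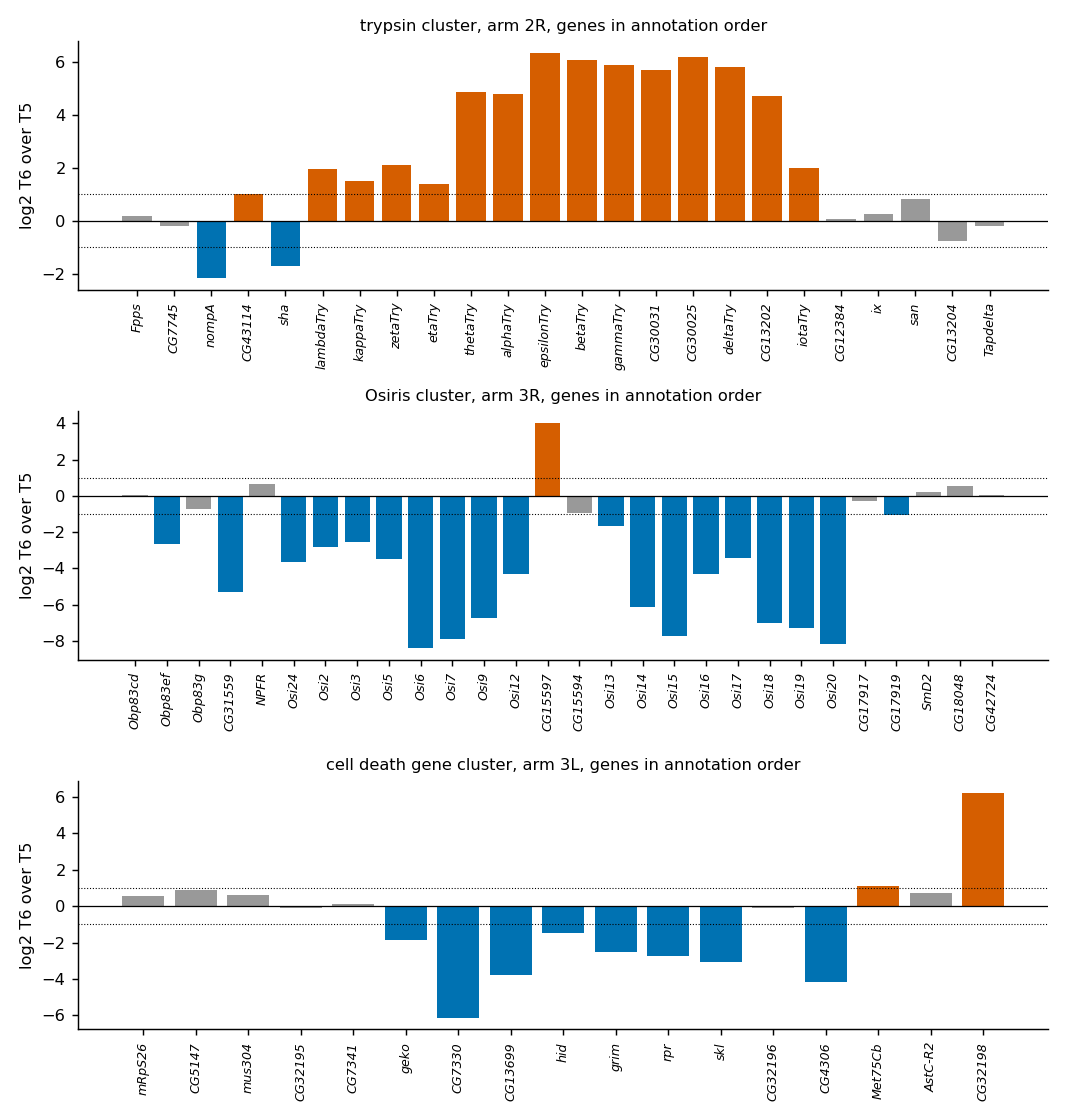
Bars give the T6 over T5 log2 change of compared genes in annotation order through the trypsin, Osiris and cell death gene clusters, with 5 neighbours on each side. Orange and blue bars are past 2-fold (dotted lines) higher and lower, and the trypsin cluster stands above 0 while the Osiris (apart from *CG15597*) and cell death clusters stand below it.

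The miCLIP libraries of T6 and T5 gave values that the choice of genes did not use. Of 10703 genes that reached FPKM 1 in T6 or T5 miCLIP, 1982 were over 2-fold higher in T6 miCLIP (18.5%) and 2235 lower (20.9%). Of the 377 genes over 4-fold higher in mRNA-seq that were also compared in miCLIP, 56 were over 2-fold higher there and 226 lower, with a median of -1.51. Many of these values were near the floor. Of all 613 genes over 4-fold higher, 334 were at 0 in T6 miCLIP and 237 in T5 miCLIP, with median FPKM of 0 and 2.55. Recovered reads on genes numbered 6210064 in T6 miCLIP and 11908077 in T5 miCLIP, and the part of depth was not tested. Of the 466 genes over 4-fold lower in mRNA-seq, 85 were over 2-fold higher in miCLIP and 117 lower, with a median of -0.17. The median of all compared genes in miCLIP was -0.10, so the higher genes lay below it and the lower genes close to it. The lists did not share a pattern. Osiris genes had a median of 0.92 in miCLIP (16 genes), against -4.32 in mRNA-seq (17 genes), and digestive enzyme genes -1.43 (35 genes), against 4.08 (53 genes), so these lists had opposite signs. Tweedle genes had -1.13 in miCLIP, with 12 of 23 lower and 1 higher, and Rebers-Riddiford genes -1.80, with 50 of 63 lower and 4 higher, so these lists were lower in both assays.

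*Osi6* had 4612 in T6 miCLIP and 2010 in T5 miCLIP, the opposite of its drop in mRNA-seq, and *CG13159* 11905 and 2969. *Jon99Cii* had 0.229 in T6 miCLIP and 6.536 in T5 miCLIP, against 5430 in T6 mRNA-seq and 59.1 in T5 mRNA-seq. Across genes, too, T6 miCLIP ranked closer to T5 and T4 than to T6 mRNA-seq. Over the compared genes its Spearman correlation was 0.497 with T6 mRNA-seq, 0.761 with T5 mRNA-seq and 0.707 with T4 mRNA-seq (across genes, as a description).

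**Figure D5:**
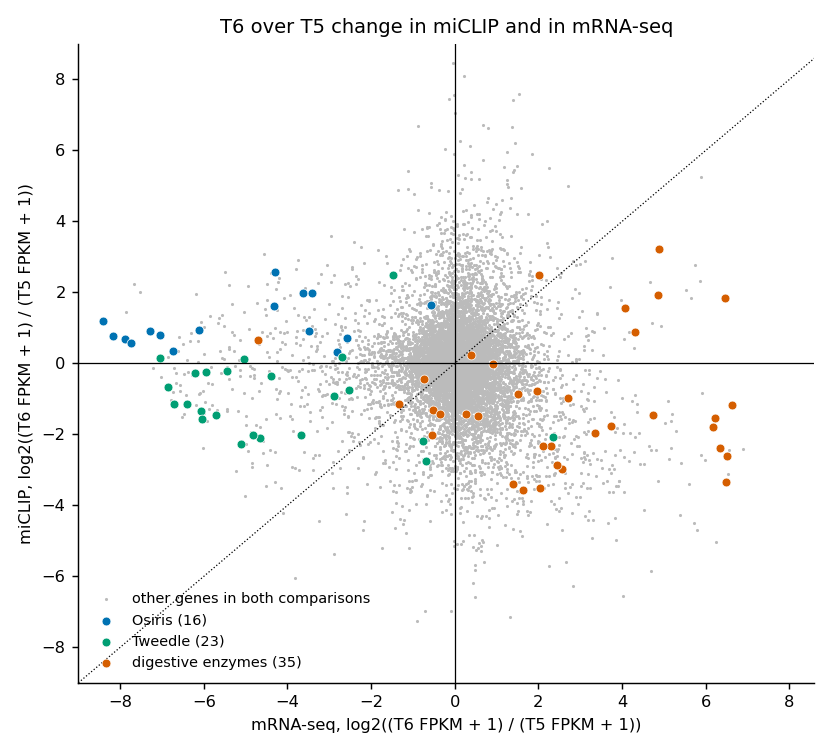
Each point is a gene compared in both assays, with its T6 over T5 log2 change in miCLIP on the vertical and in mRNA-seq on the horizontal axis. The dotted line is equality, which the points do not follow, and Osiris genes lie left at a miCLIP median of 0.92 while digestive enzymes lie right at a miCLIP median of -1.43.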

How the data were processed

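The values are FPKM per gene, deposited by the authors as a table of 14977 genes in 12 libraries. The authors mapped reads with Subread, counted them on genes with featureCounts and normalized with DESeq, and the gene lengths and strand setting of the counting are not given in the sources used here. Overlapping and near-identical genes can therefore share or lose reads. Libraries were assigned by their titles.

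Changes were computed in Python 3.11.15 (pandas 2.3.3, scipy 1.17.1) with a pseudocount of 1, so folds on the log2 scale understate the change of low genes. Reads were recovered from the steps in the FPKM values for 13411 genes. No test was made, since each side has 1 library. The scripts were tested on simulated data.

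Members and gene lists were chosen with earlier results of these data known. Named are the 15 highest and 15 lowest changes, the 5 highest levels in each library, the 3 extremes of each list and of genes at FPKM of at least 100 in both, all m6A factors and *Sxl*. Other named genes were chosen after their values were seen. Gene order and classes follow RefSeq Release 6, with 14821 symbols matched, and no coordinates are given. Alternatives were other pseudocounts, filters and scalings, and, added after seeing the data, the count without genes held higher in T1, T2 or T3.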

Additional observations from a re-analysis of the deposited data

How the results depend on the processing

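A pseudocount of 10 left 987 genes over 2-fold higher and 604 lower, and equal FPKM sums gave 1114 higher and 1856 lower, against 1724 and 1113. The other 9 settings kept both counts within 1.5 times, from 1323 to 2005 higher and from 769 to 1416 lower. Centring on the median gave 1463 higher and 1308 lower. Each of the 3 scalings lowers T6 against T5, so the 1113 lower genes stayed lower by construction. No named gene past 2-fold and no list median past 2-fold changed sign. For single genes none of the settings could reverse a change past 2-fold. The largest shift of a scaling was 0.44 log2 units, so the scalings could not reverse such a list median either. Of 8 list medians past 2-fold, 5 kept it with equal sums (not vacuolar ATPase, neuropeptides and glutathione S-transferases) and 4 with a pseudocount of 10. The deposited scale sets T6 1.18 times higher against T5 than recovered reads divided by the library total do, and which scale is right cannot be told from these files. Of the 1724 higher and 1113 lower genes, 62 and 31 have under 20 reads in T6 and T5 together. No paired analysis was possible because each timepoint has 1 library.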

Other observations

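Some further lists gave the following counts. Over all compared genes, 16.2% were over 2-fold higher and 10.5% lower, and at equal FPKM sums 10.4% and 17.3%. Of 22 heat shock and chaperone genes 3 were over 2-fold lower (13.6%, near the share of all genes) and none was higher. Of 24 proneural and neuroblast genes 1 was higher (4.17%) and 3 were lower (12.5%, near the share of all genes), against 1 and 8 of 23 at equal FPKM sums. Of 177 chemoreceptor genes 16 were compared, with 3 lower and none higher. None of 11 germ line piRNA genes passed 2-fold, and their summed FPKM was 50.7 in T6 and 28.7 in T5. Of 7 compared immune-induced (IM) peptide genes 5 were over 2-fold higher and none was lower, with a median FPKM of 33.1 in T6 and 8.44 in T5.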
